A study of Rattus norvegicus with 12 samples.

Results

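The cytosolic ribosomal protein genes were taken from the table by symbol: Rpl or Rps followed by a number and an optional a or x, Rplp0 to Rplp2, and Rpsa. This gave 74 symbols, 30 for the small and 44 for the large ribosomal subunit, of 25888 symbols in all. They filled 106 of the 30309 transcript rows, and each symbol was represented by the row with the highest mean count, called the member below. All 74 members passed the filter on low counts.

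The tissue was isolated pancreatic islets from Sprague Dawley rats, in 4 groups of 3 libraries: control offspring at 2 weeks, IUGR offspring at 2 weeks, control offspring at 10 weeks and IUGR offspring at 10 weeks of age. IUGR is intrauterine growth restriction, here after both uterine arteries of the dam were tied at embryonic day 18. Control litters were reduced to 8 pups, and all dams and offspring had free access to chow and water. The sources used here give neither the sex, nor the number of animals behind each library, nor whether control dams had a sham operation. P-values therefore measure the spread between these libraries only.

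Cytosolic ribosomal proteins assemble with ribosomal RNA into the small subunit, which decodes the messenger RNA, and the large subunit, which joins amino acids. Their messenger RNAs are abundant in most cells and belong to the TOP class: they begin with a cytosine followed by an unbroken run of pyrimidines, the terminal oligopyrimidine tract, through which the kinase complex mTORC1 controls their translation. Acinar cells, which make the digestive enzymes, and dividing cells are both known for high protein synthesis. In bulk RNA, fewer cells of a type and less RNA per cell cannot be told apart.

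To show the TOP feature in these genes, 30-base windows around the annotated transcript start, 15 bases on each side, are printed 5′ to 3′ on the gene strand from RefSeq, build GRCr8. Capitals mark the longest run of C and T that touches the 5 bases on either side of the start, so it need not include the first base itself. The first pair of genes shown were members with large differences between groups, the next pair were fixed members, and Rpl10 and Rps21, picked after their values were seen, were higher relative to the rest of the family in some comparisons. The windows lay at chr1:92770643-92770672 on the plus strand for Rps16, chr1:89608673-89608702 on the plus strand for Rps19, chr12:46718376-46718405 on the minus strand for Rplp0, chr20:6390518-6390547 on the plus strand for Rpl10a, chrX:157205835-157205864 on the plus strand for Rpl10 and chr3:187724023-187724052 on the plus strand for Rps21. Each spans the upstream flank and the first bases of the first exon.
Rps16: cctggaaaaTCggtcggggtggccccaagc
Rps19: cccgacttgtgcgCCCgggaaaccccgtcg
Rplp0: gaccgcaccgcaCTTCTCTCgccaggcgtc
Rpl10a: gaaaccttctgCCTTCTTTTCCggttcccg
Rpl10: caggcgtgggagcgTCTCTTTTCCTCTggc
Rps21: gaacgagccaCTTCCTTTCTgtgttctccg
The C and T run so defined had 2 bases in Rps16, 3 in Rps19, 8 in Rplp0, 11 in Rpl10a, 13 in Rpl10 and 10 in Rps21. A window depends on the annotated start, and a short run says only that these letters are not at that place. In Rps16 and Rps21 the annotated first base was not C.

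RefSeq held a promoter entry for 59 of the 74 members (79.7%). Since fewer than 80% of the members had one, a check of the whole family against other genes is void, and the counts that follow describe the 59 entries only. Shares of all promoters are printed beside them as a description, and no test was made. Each member was given 1 entry, while every entry of the table was counted among all promoters. A run of at least 8 C and T touching these bases was present in 38 of the 59 (64.4%) and in 8.67% of all 33469 promoters of the table. The annotated first base was C in 33 of the 59 (55.9%) and in 24.1% of all promoters. Short pyrimidine motifs, of which several can overlap, were searched in the 30 bases: CTTTC in first place, the shifted form CCTTT as well, and besides these the forms CTCTT and likewise CTTTT. On the gene strand at least 1 of them was present in 40 of the 59 entries (67.8%), against 11.2% of all promoters. On either strand the figures were 42 of the 59 (71.2%) and 21.9%.

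The libraries held 30.4 to 64.2 M counts (M, mega), and the lowest count of any member in any library was 1310. Counting error was small: the widest 95% Wilson interval of the members' summed share reached 0.00451 percentage points to either side, and it covers counting error only. The libraries differed in composition. A list of acinar genes gave 35 transcripts, of which 34 passed the filter on low counts. The 35 took 21.7% to 42.2% of all counts in controls at 2 weeks and 4.38% to 9.38% in IUGR at 2 weeks. They took 13.9% to 46.9% in controls at 10 weeks and 0.635% to 2.33% in IUGR at 10 weeks. None of the 34 was at 0 in any group. TMM scaling, edgeR's correction for library composition, gave factors of 0.440 to 1.40. The 15 beta cell markers, which check the islet label, were all detected, with summed levels of 22605 to 39632 TMM-scaled CPM in controls at 2 weeks and 180089 to 194541 in IUGR at 10 weeks.

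Per library, the 74 members together took 1.98%, 2.12% and 2.14% of the counts in controls at 2 weeks (replicates 1 to 3). They took 2.20%, 2.29% and 2.39% in IUGR at 2 weeks. They took 0.806%, 1.63% and 0.855% in controls at 10 weeks and 1.40%, 1.74% and 1.37% in IUGR at 10 weeks. All 6 libraries at 2 weeks were above all 6 at 10 weeks, and the IUGR libraries at 2 weeks were all above the controls of that age. The shares of the 2 groups at 10 weeks overlapped.

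Scaled CPM, the counts divided by the TMM-corrected library total in M, gave another order between IUGR and control. The summed member level was 25730, 18478 and 18607 CPM in controls at 2 weeks and 15947, 16340 and 17587 in IUGR at 2 weeks. It was 16399, 15198 and 19434 CPM in controls at 10 weeks and 11808, 14764 and 11854 in IUGR at 10 weeks. On this scale the IUGR libraries were all below the controls of the same age. As means ± SD (n = 3) the summed levels were 20938 ± 4150, 16625 ± 856, 17010 ± 2183 and 12809 ± 1694 CPM in these 4 groups. The direction between IUGR and control therefore depended on what the members were divided by.

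In TMM-scaled CPM, the library with the highest acinar share in each of the 4 groups also had the highest summed member level. At 2 weeks these were replicate 1 of the controls and replicate 3 of IUGR. At 10 weeks they were replicate 3 of the controls and replicate 2 of IUGR. The acinar shares of these libraries were 42.2%, 9.38%, 46.9% and 2.33%. As a share of counts the order differed in the controls. At 2 weeks the members' share was lowest in control replicate 1 (1.98%). At 10 weeks it was highest in control replicate 2 (1.63%), which had the lowest acinar share (13.9%). In both IUGR groups the same library was highest in share and in scaled CPM. The proliferation list, 40 transcripts of the cell division machinery, was also highest in replicate 1 of the controls at 2 weeks (1225 CPM) and in replicate 2 of IUGR at 10 weeks (402 CPM). In controls at 10 weeks it was highest, at 655 CPM, in replicate 2, where the scaled member level and the acinar list were lowest. In IUGR at 2 weeks it was highest, at 1184 CPM, in replicate 1, where the members were lowest. These are orders of 3 libraries, given as a description.

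**Figure D1:**
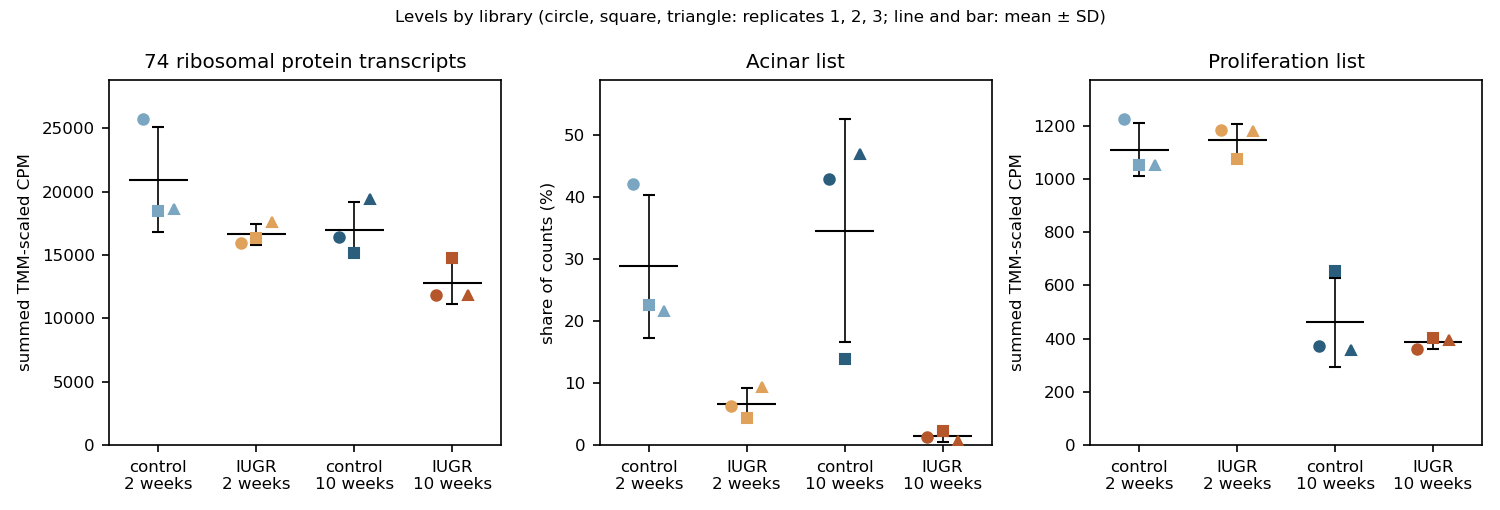
Summed TMM-scaled CPM of the 74 ribosomal protein members, percentage of counts from acinar transcripts and summed TMM-scaled CPM of the proliferation list, per library in the 4 groups; symbols are replicates 1 to 3, lines and bars the mean ± SD. In TMM-scaled CPM the members were highest where the acinar share was, in replicate 1 of the controls at 2 weeks and replicate 3 at 10 weeks. The members' share of counts, not drawn here, did not follow this order in the controls. The proliferation list separated the ages.

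IUGR was first compared with control at 2 weeks, across all 20733 transcripts that passed the filter. No member passed edgeR's quasi-likelihood test with Benjamini-Hochberg adjustment (threshold 0.05) in either direction, against 2.21% of all transcripts called lower. The smallest adjusted p of a member was 0.0808, and 21 members had an unadjusted p under 0.05, as did 5939 of the 20733 transcripts, which is close to the same share. DESeq2 called 5 lower, among them Rpl5, Rpl41 and Rpl4, and 6.9% of all transcripts, so that the share of the members was again near that of all. All 74 log2 fold changes were below 0, with a median of -0.30 against 0.05 for all transcripts. The 3 IUGR libraries lay below the 3 controls for 48 of the 74 members, and for 16.8% of all transcripts. Without replicate 1 of the controls the median was -0.14 and 1 member had an unadjusted p under 0.05. The share of all transcripts called in either direction was then 0.0806%, against 3.88% with all libraries. The median was above 0 with the acinar covariate (0.05) and without scaling factors (0.18). Of the 34 acinar transcripts 33 were below 0, with a median of -2.63, and their part in the members' values was not tested.

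The lowest value belonged to Rpl5, a large subunit protein that binds 5S ribosomal RNA. Rpl5 stood at 727, 491 and 489 CPM in controls and at 368, 381 and 402 in IUGR, so the groups did not overlap. Its log2 fold change was -0.57 ± 0.18 (SE), adjusted p = 0.0808 by edgeR's quasi-likelihood test. Replicate 1 of the controls stood far above the other 2 for this and most members. At the other end, Rps27, a small subunit protein with a zinc finger, was at 164, 148 and 162 CPM in controls and at 149, 157 and 164 in IUGR (log2 fold change -0.01 ± 0.11). Its groups overlapped.

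At 10 weeks, with TMM scaling, 24 members were lower in IUGR than in control and none higher: 12 of the small and 12 of the large subunit. Of all transcripts, 15.5% were called lower and 12.4% higher, and of the 2123 transcripts at least as abundant as the least abundant member 17.6% were called lower. The median of the 74 members was -0.42, against -0.01 for all transcripts, and 73 were below 0. The medians of the small subunit (-0.45) and of the large subunit (-0.40) were close. The IUGR libraries lay below all controls for 39 members (18.9% of all transcripts). Without replicate 3 of the controls 1 member was called, without replicate 1 of the controls 11, and without replicate 1 or 3 of IUGR 3 each. Of all transcripts 14.1%, 33.3%, 18% and 18.9% were then called in either direction, against 27.9% with all libraries. The members' median was also below 0 with RLE factors and DESeq2 (-0.41 in both), but it was 0.46 with library totals and no scaling factors, and 0.34 once the acinar level was a covariate. Acinar levels moved in the same comparison: 32 of 34 acinar transcripts were lower, with a median of -5.70, and their part in the members' values was not tested.

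Rps16, a small subunit protein close to the decoding site, fell most. It stood at 132, 133 and 143 CPM in controls and at 78.5, 53.5 and 65.5 CPM in IUGR at 10 weeks. In TMM-scaled CPM all 3 IUGR libraries were below every other library of the study. The TMM factors at 10 weeks were 0.492, 1.07 and 0.440 in controls and 1.18, 1.18 and 1.16 in IUGR. The order is given on this scale only. The log2 fold change of Rps16 was -1.05 ± 0.14 (SE), adjusted p = 0.00138 by edgeR's quasi-likelihood test. Over 21 alternatives it ran from -1.19 to -0.23.

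Of the other called members, Rps28, a small subunit protein and one of the 3 members with fewest counts, was at 78.3, 62.1 and 92.5 CPM in controls and at 44.3, 51.4 and 42.4 CPM in IUGR. It fell by 0.75 ± 0.19 on the log2 scale, adjusted p = 0.0141 by edgeR's quasi-likelihood test. Rps19, whose loss in humans causes Diamond-Blackfan anaemia, was at 159, 169 and 198 CPM in controls and at 98.8, 133 and 94.7 CPM in IUGR. It fell by 0.69 ± 0.19, adjusted p = 0.0203 in the same edgeR test. In both genes the groups did not overlap, and replicate 2 was the highest of the IUGR libraries.

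Among proteins of the large subunit, Rpl23 fell by 0.65 ± 0.20 (adjusted p = 0.035, edgeR). Rplp0, the base of the stalk that recruits translation factors, fell by 0.65 ± 0.19 (adjusted p = 0.0272, edgeR), from 535, 475 and 645 CPM in controls to 314, 416 and 328 CPM in IUGR. Its stalk partners Rplp1 and Rplp2 gave -0.43 (adjusted p = 0.164) and -0.54 (adjusted p = 0.0207) in edgeR's test. Rpsa, the small subunit protein also known as the laminin receptor, fell by 0.64 ± 0.16 (adjusted p = 0.0131, edgeR), from 422, 354 and 483 CPM to 241, 308 and 259 CPM. All 3 of Rplp0, Rplp2 and Rpsa had groups that did not overlap.

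Rpl3, close to the peptidyl transferase centre, gave -0.47 (adjusted p = 0.0493, edgeR), and Rpl10a gave -0.59 (adjusted p = 0.0252). Rps14 gave -0.49 (adjusted p = 0.0437, edgeR). Rps4x, the X-linked S4 gene, gave -0.52 and missed the threshold (adjusted p = 0.0541, edgeR). Of the 16 fixed members, Rpl5, Rpl11, Rps6, Rpl22, Rpl41, Rpl13a and Rps27a did not pass, nor did Rplp1 and Rps4x. Rps6, the classical substrate of S6 kinase, gave -0.34 (adjusted p = 0.138), and Rpl11, the partner of Rpl5 in binding 5S RNA, gave -0.22 (adjusted p = 0.252). Rpl4, the member with the most counts, gave -0.23 (adjusted p = 0.326). Rps27 was at the upper end, with 0.00 ± 0.11, and Rps21 gave -0.04.

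**Figure D2:**
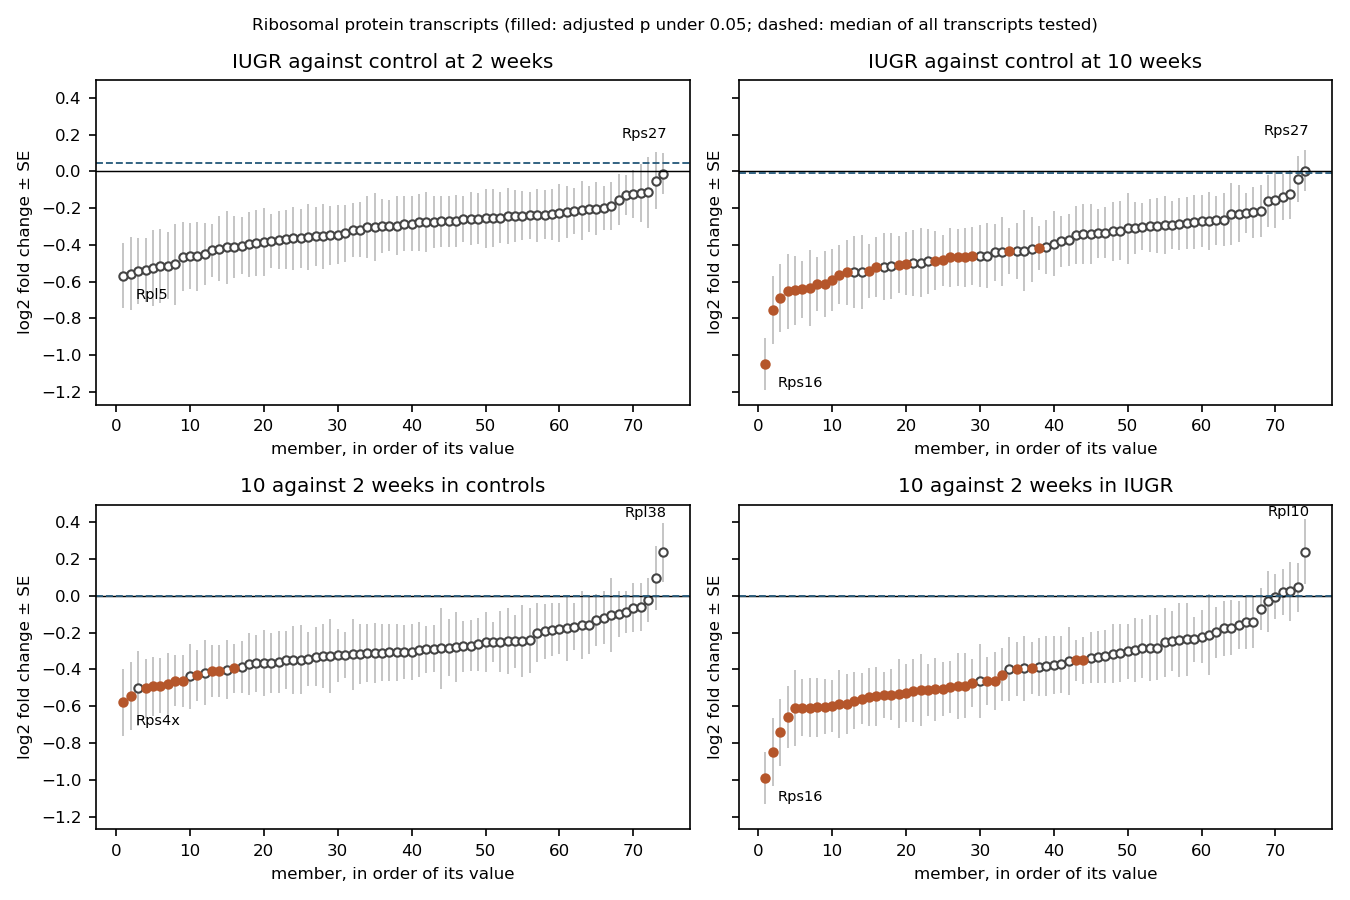
Log2 fold change ± SE of each of the 74 members, in order of value, in 4 comparisons; filled points passed the threshold of 0.05 on the adjusted p, and the dashed line is the median of all transcripts. Between IUGR and control 0 members passed at 2 weeks and 24 at 10 weeks, and between ages 12 passed in controls and 36 in IUGR, all lower.

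Whether the effect of IUGR differed between ages was tested directly. Only Rps16 among the 74 members passed, with a difference of -0.81 ± 0.20 (adjusted p = 0.0207, edgeR's quasi-likelihood test), against 10.4% of all transcripts called lower. Its effect was -0.23 ± 0.14 at 2 weeks (adjusted p = 0.286) and -1.05 at 10 weeks. The median difference of the 74 members was -0.10, and 57 were below 0. A member called at 10 weeks and not at 2 weeks is thus not shown to differ between ages, except Rps16.

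With age, 12 members fell in controls and none rose, 6 from each subunit, against 15.1% of all transcripts called lower and 17.2% called higher. The share of the members called, 12 of 74, was near that of all transcripts. The median of the members was -0.31, against -0.00 for all transcripts, and 72 were below 0. The libraries of the 2 ages did not overlap, lower at 10 weeks, for 17 members (20.5% of all transcripts). Without replicate 1 of the controls at 2 weeks, or replicate 1 at 10 weeks, edgeR called 0 members (6 and 13 at an unadjusted p under 0.05). Without replicate 2 at 10 weeks it called 1. Of all transcripts 27.1%, 24.1% and 32.5% were then called in either direction, against 32.3% with all libraries. Without replicate 1 at 2 weeks the median was -0.14. The proliferation list fell in the same comparison, with 36 of 40 transcripts called lower and a median of -1.41, and in the acinar list 6 of 34 were called higher. Their part in the members' values was not tested.

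In controls Rps4x fell most, from 206, 138 and 143 CPM at 2 weeks to 99.7, 95.5 and 131 CPM at 10 weeks (log2 fold change -0.58 ± 0.18, adjusted p = 0.0322, edgeR). The ages did not overlap. Rps19 fell by 0.54 ± 0.18 (adjusted p = 0.0434, edgeR) and Rpl3 by 0.50 ± 0.16 (adjusted p = 0.0335). Rps14 fell by 0.49, and Rpl10a fell by 0.48 (adjusted p = 0.0493). Rpl34, Rpl22, Rps18, Rpl27a, Rpl15 and Rps15a were also called, at -0.46 to -0.39. Rpl38, a small large-subunit protein studied for its part in translating Hox messenger RNAs, was at the upper end with 0.24 ± 0.16 (adjusted p = 0.271).

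In IUGR, 36 members fell with age, 17 of the small and 19 of the large subunit, and none rose. Of all transcripts, 29.2% were called lower and 27.3% higher, and of the abundant transcripts described above 25% were called lower. The median of the members was -0.39 against 0.00 for all transcripts, with -0.49 in the small and -0.35 in the large subunit. The ages did not overlap for 51 members that were lower at 10 weeks (35.5% of all transcripts), and for 1, Rpl10, that was higher. The proliferation list had 39 of 40 transcripts called lower with a median of -1.92, and the acinar list had 21 of 34 called lower. Without replicate 3 at 2 weeks 23 members were called, and without replicate 1 or 3 at 10 weeks 19 and 20. Of all transcripts 49.4%, 50.7% and 49.9% were then called in either direction, against 56.5% with all libraries. Comparisons within one age and between ages share libraries, so the counts above are not independent of each other.

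Rps16 again had the lowest value: it fell from 119, 138 and 135 CPM at 2 weeks to 78.5, 53.5 and 65.5 CPM at 10 weeks (-0.99 ± 0.14, adjusted p = 0.000154, edgeR). Rps19 followed, from 188, 191 and 211 CPM to 98.8, 133 and 94.7 CPM (-0.85 ± 0.19, adjusted p = 0.00249, edgeR). Rps4x fell by 0.74 ± 0.18 (adjusted p = 0.00503) and Rpl10a by 0.66 ± 0.17 (adjusted p = 0.0063). Rpl13 and Rpsa fell by 0.61 each. None of these 6 had overlapping ages in IUGR.

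Several members were not lower with age in IUGR. Rpl10, a large subunit protein added late in assembly, was at 84.7, 87.7 and 94.6 CPM at 2 weeks and at 98.6, 122 and 95.04 CPM at 10 weeks. The ages did not overlap, by a narrow gap, and the log2 fold change was 0.24 ± 0.18 (adjusted p = 0.261, edgeR). Rps27a, made as a fusion with ubiquitin, was at 229, 231 and 245 CPM and then at 226, 277 and 226 CPM, with overlapping ages and a change of 0.05 ± 0.13. Rps26 (0.02), Rps21 (-0.00) and Rpl38 (0.02) were close to 0 too. A p above the threshold does not show that levels were equal.

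**Figure D3:**
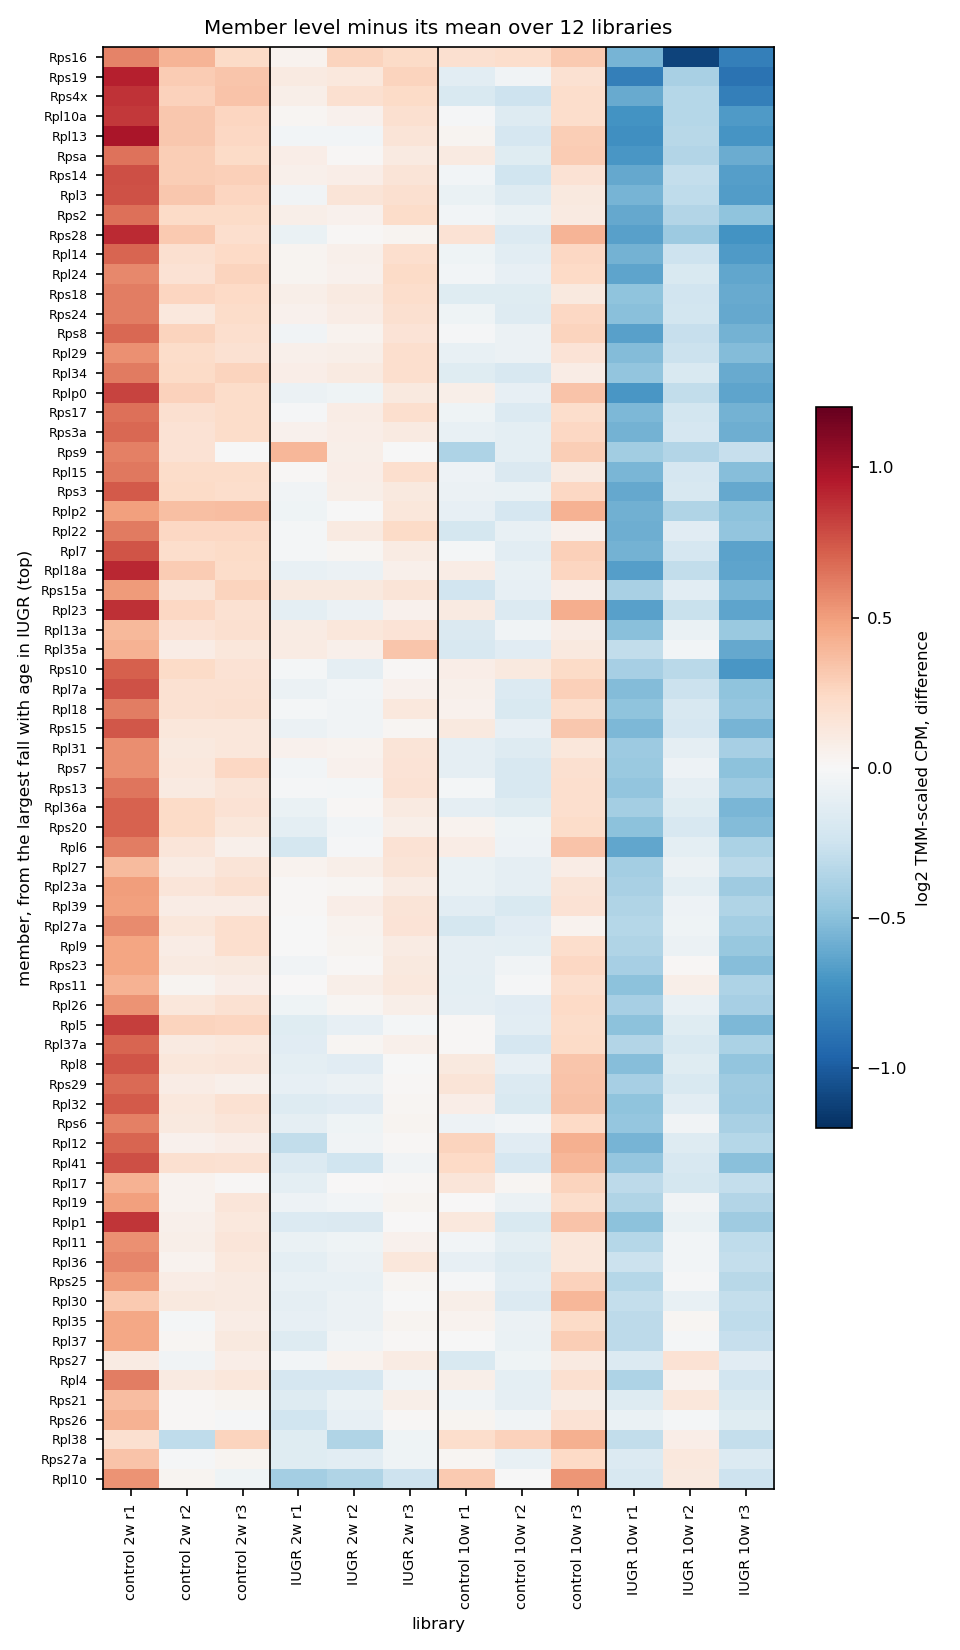
Log2 TMM-scaled CPM of 73 members minus each one's mean over the 12 libraries, with members ordered by their change with age in IUGR. Most members were high in replicate 1 of the controls at 2 weeks and low in replicates 1 and 3 of IUGR at 10 weeks, while Rps16 was lowest in replicate 2 of that group.

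The members were next set against their own sum, by using the summed members as the library size, so that a difference shared by the whole family drops out. This scale sets the members' median near 0 by construction and shifts all other transcripts. Of all transcripts, 39.6% were called in either direction between IUGR and control at 10 weeks, 27.1% between ages in controls and 56.8% between ages in IUGR, and nothing is read from the members' counts against these shares. At 2 weeks edgeR called 0 of the 20613 transcripts on this scale, so the lack of member calls says nothing particular to the members. No member had an unadjusted p under 0.05 there. At 10 weeks Rps16 was lower relative to the family (-0.61 ± 0.20, adjusted p = 0.0297, edgeR) and Rps21 was higher (0.36 ± 0.13, adjusted p = 0.0408). With age in controls, Rpl38 (0.52) and Rpl10 (0.40) rose relative to the family (adjusted p = 0.0389 and 0.0404, edgeR). The adjustment ran over all 20613 transcripts on this shifted scale, so these adjusted p-values depend on the shift. An unadjusted p under 0.05 was found for 4 of the 74 members at 10 weeks and for 2 with age in controls. These calls are therefore not taken as evidence that a member departed from the family.

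Between ages in IUGR, 7 members were called by edgeR's quasi-likelihood test on this scale. An unadjusted p under 0.05 was found for 10 of the 74, and the adjusted p-values depend on the shift here too. Rpl10 was higher by 0.62 ± 0.13 (adjusted p = 0.00172), Rps27a by 0.42 (adjusted p = 0.0194), Rps26 by 0.41 (adjusted p = 0.023) and Rps21 by 0.37 (adjusted p = 0.0252). Rps16 was lower by -0.58 on the log2 scale (adjusted p = 0.0249), Rps19 by -0.48 (adjusted p = 0.0105) and Rps4x by -0.37 (adjusted p = 0.0321). Rps21 and Rps26 are small subunit proteins.

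Rps16 also differed from the family in the order of the libraries. In IUGR at 10 weeks replicate 2 had the highest summed member level (14764 CPM) but the lowest Rps16 (53.5 CPM). In replicates 1 and 3, where the sum was 11808 and 11854 CPM, Rps16 was at 78.5 and 65.5 CPM.

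**Figure D4:**
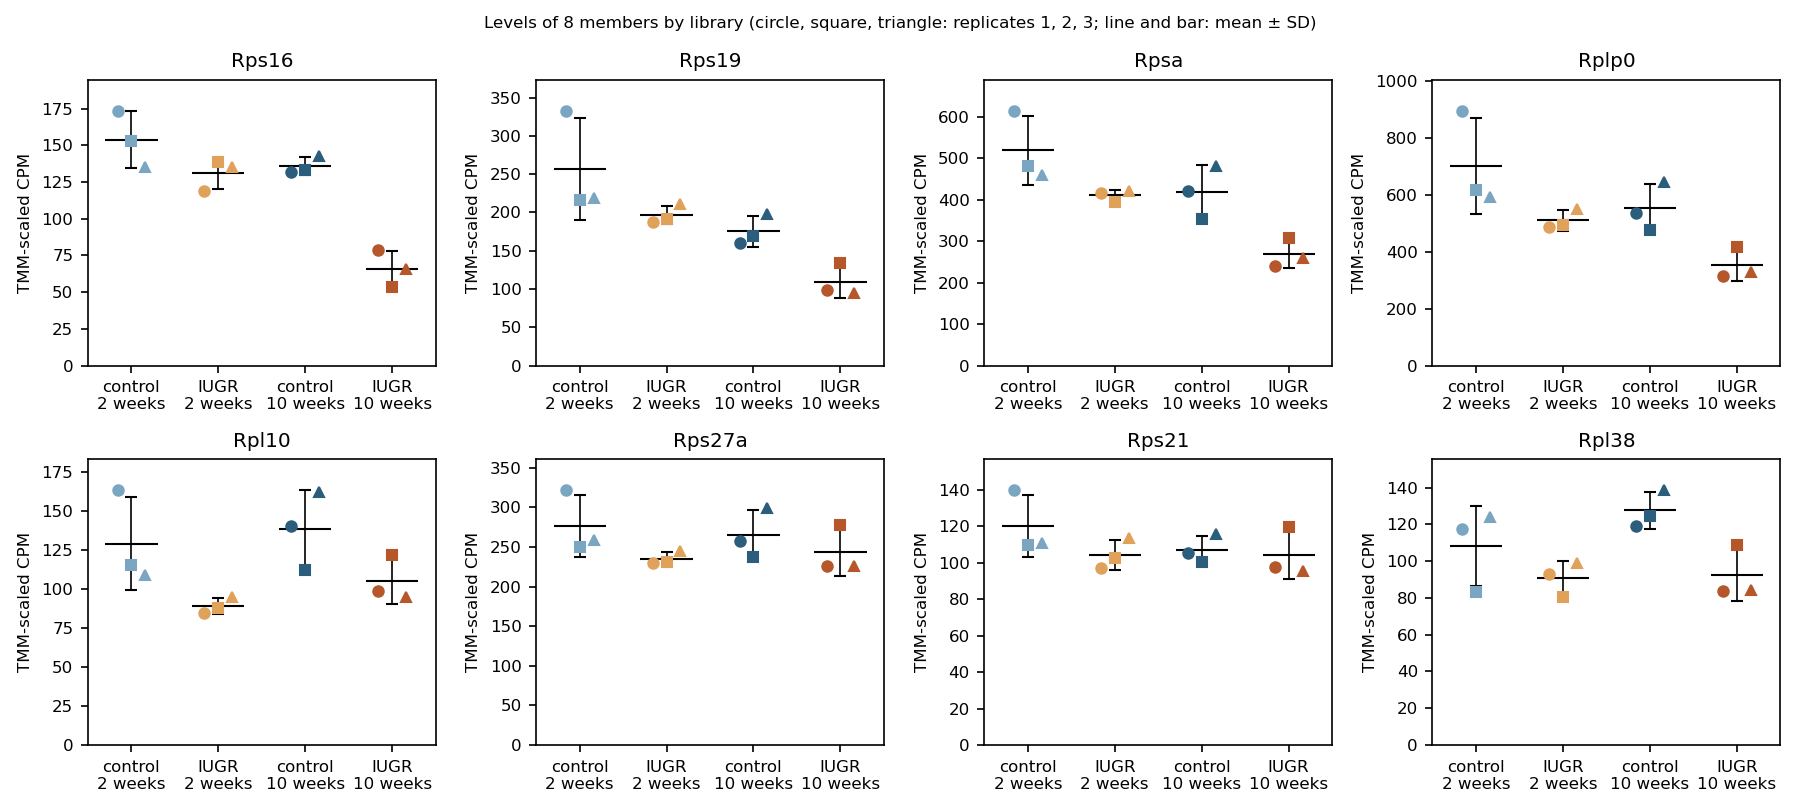
TMM-scaled CPM per library of Rps16, Rps19, Rpsa, Rplp0, Rpl10, Rps27a, Rps21 and Rpl38; symbols are replicates 1 to 3, lines and bars the mean ± SD. Rps16 was at 53.5 to 78.5 in IUGR at 10 weeks and at 119 or above in all other libraries, and the 4 groups of Rps21 all overlapped.

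The fit was repeated with the acinar level of each library as a covariate. At 10 weeks, 0 members were then called by edgeR between IUGR and control (3 at an unadjusted p under 0.05), against 6.64% of all transcripts called lower, and the members' median turned from -0.42 to 0.34. Rps16 gave -0.89 (adjusted p = 0.116, edgeR). Between ages in IUGR, 3 members were called: Rps16 (-0.93) and Rps19 (-0.56) lower and Rpl10 (0.65) higher, with 27.1% of all transcripts called lower and a median of the members of -0.10. With age in controls, 48 members were called, all lower, against 18.2% of all transcripts, and the median was -0.39. In the test of the difference between the IUGR effects, Rpl10 was called higher (0.67), against 8.3% of all transcripts called higher, and Rps16 was not called (-0.74, adjusted p = 0.0611). Acinar level and condition went together, since every IUGR library had less acinar RNA than every control of its age, so the 2 cannot be told apart within an age.

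With the proliferation level as a covariate instead, 20 members were called lower at 10 weeks (13.9% of all transcripts), 19 of them among the 24 called without it, with a median of -0.44. Between ages edgeR called none, either in controls (0.135% of all transcripts called lower) or in IUGR (3.27%). At an unadjusted p under 0.05 there were 1 and 5 members. The medians between ages were then -0.49 in controls and -0.60 in IUGR, further from 0 than without the covariate. The proliferation list separated the 6 libraries of each age without overlap, so proliferation and age cannot be told apart.

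Without the 2 controls at 10 weeks that had an acinar share above 40%, 1 control library remained at that age, assumed to vary like the other groups. The members' median at 10 weeks was then -0.23 and 1 member, Rps16, was called (adjusted p = 0.0115, edgeR), against 13.2% of all transcripts called lower. Between ages in IUGR 38 were called, among them all 36 of the fit over all libraries, and 29.4% of all transcripts were called lower.

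Scaling was the other choice that moved the members. When library totals were used with no scaling factors, the median of all transcripts shifted to 0.80 between IUGR and control at 10 weeks, and that of the members to 0.46. The members thus remained below the median of all transcripts, but above 0, and none was called. When the acinar list was taken out of the totals, the medians at 10 weeks were 0.27 for all transcripts and -0.11 for the members, and 1 member, Rps16, was called, against 8.35% of all transcripts called lower. With age, the same totals gave 73 members called lower in controls (49.4% of all transcripts, median of the members -0.86) and 67 in IUGR (36.4%, median -0.70). The members' median was below 0 between ages, and below that of all transcripts, under both of these scalings. With acinar counts removed from the total, the members took 2.97% ± 0.403 in controls and 2.46% ± 0.157 in IUGR at 2 weeks, and 1.64% ± 0.242 and 1.52% ± 0.221 at 10 weeks (SD, n = 3). Both scalings were added after the data were seen.

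**Figure D5:**
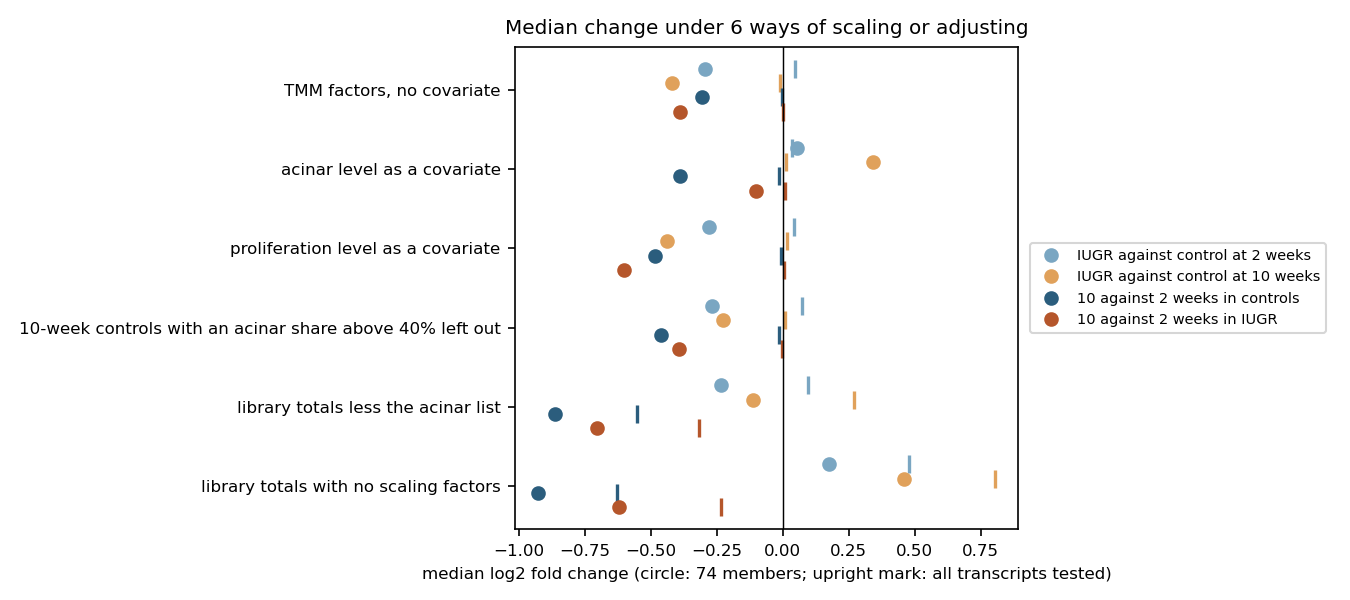
Median log2 fold change of the 74 members (circles) and of all transcripts tested (upright marks) under 6 ways of scaling or adjusting, for 4 comparisons in colour. The medians between ages stayed below 0 in all 6 settings, and the median between IUGR and control at 10 weeks was above 0 with the acinar covariate (0.34) and with no scaling factors (0.46).

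Other genes of the translation machinery were taken from lists, and their values are from the fit with TMM factors and no covariate. Their values at 10 weeks with the acinar covariate or without scaling factors, settings that turned the members' median, are not given. The first list held 21 translation factors and other genes with TOP messenger RNA, Vim among them. Of these, 12 were lower and 1 higher in IUGR at 10 weeks, with a median of -0.39. Of all transcripts, 15.5% were called lower and 12.4% higher. Eif3f, a subunit of initiation factor 3, fell by 0.65 ± 0.09 (adjusted p = 0.00153, edgeR), and Btf3, part of the nascent chain complex, gave -0.34. Vim, the intermediate filament vimentin, is a TOP messenger RNA but also a mesenchymal gene, and gave -1.41, where 9 of 13 mesenchymal markers were lower too. With age in IUGR 10 of the 21 were lower and 1, the initiation factor Eif4a2 (0.90), higher. Of all transcripts, 29.2% were lower and 27.3% higher there. Eif3f fell by 0.92 ± 0.09 (adjusted p = 1.48e-05, edgeR). In controls 3 were lower and 1 higher with age, neither share above that of all transcripts (15.1% lower, 17.2% higher). At 2 weeks none was called, against 2.21% of all transcripts lower and 1.66% higher.

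Ribosomal protein genes that the symbol rule left out numbered 11. At 10 weeks 3 were lower in IUGR, against 15.5% of all transcripts. These were Gnb2l1, the scaffold Rack1 of the small subunit (-0.62, adjusted p = 0.0263, edgeR), Rps27l (-1.02) and Fau (-0.36). Fau encodes the small subunit protein S30. With age in IUGR 5 were lower and Rpl36al, a copy of the Rpl36a gene, was higher (0.59 ± 0.18, adjusted p = 0.0158, edgeR). Of all transcripts, 29.2% were lower and 27.3% higher in that comparison.

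Of 38 ribosome biogenesis genes, 4 were higher and 1 lower in IUGR at 10 weeks, with a median of 0.03, and neither share was above that of all transcripts (12.4% higher, 15.5% lower). The 1 lower gene was Myc, the transcription factor that drives growth genes (-2.57 ± 0.29, adjusted p = 0.00074, edgeR), and Wdr75, a factor of small subunit processing, rose by 0.60 ± 0.10. Between ages in IUGR 7 were higher and 5 lower, also below the shares of all transcripts (27.3% and 29.2%). Of 14 assembly chaperones and importers of ribosomal proteins, 3 were higher at 10 weeks (12.4% of all transcripts) and 8 with age in IUGR (27.3%). None was lower in either. Among them Tsr2, the chaperone of Rps26, rose by 0.44 ± 0.10 at 10 weeks (adjusted p = 0.0123, edgeR) and Bccip, the chaperone of Rpl23, by 0.47 ± 0.13 (adjusted p = 0.022). The difference between these lists and the members was not tested.

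Of 22 genes of mTORC1 and translation control, 5 were lower in IUGR at 2 weeks, against 2.21% of all transcripts. Among them was Tsc1, an inhibitor of mTORC1 (-0.60 ± 0.10, adjusted p = 0.029, edgeR). At 2 weeks 0 of all transcripts were called with the acinar covariate or with only the libraries compared, so none of the 5 was called there. Leaving out 1 library gave 0% to 11.2% of all transcripts called at this age. At 10 weeks 3 were lower and 1 higher, neither share above that of all transcripts (15.5% lower, 12.4% higher). Eif4ebp1, the repressor of the cap-binding factor, fell by 2.14 ± 0.32 (adjusted p = 0.00193, edgeR), Eef2k, the kinase of elongation factor 2, fell by 1.29, and the cap-binding factor Eif4e rose by 0.46 (adjusted p = 0.00352). Like the members, Eif4ebp1 and Eef2k were measured in libraries that differed in acinar share.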

How the data were processed

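RNA of 12 islet libraries was measured by stranded total RNA sequencing after depletion of ribosomal RNA, from RNA with an integrity number above 7, per the labels' protocols. TopHat2 2.0.9 and bedtools, and the builds rn5 and mm9, are listed in the submitters' processing notes with no roles. The sources used here do not state how reads were counted or with which strand setting. The authors deposited raw counts per transcript, with no normalization. Totals were 30.4 to 64.2 M, and every row had a gene symbol.

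The tests were run with edgeR 4.0.16 under R 4.3.3: TMM factors, the filterByExpr filter, and a robust quasi-likelihood F test from 1 fit over 4 groups. Benjamini-Hochberg adjustment ran over 20733 transcripts, with a threshold of 0.05. The SE was derived from the size of the log2 fold change and its F statistic. Shares had 95% Wilson intervals. Scores of lists used a prior count of 2. The fit was also run on simulated data, but no result of that run is given here. Nothing is read from it about libraries that differ in composition, as these did. Alternatives included DESeq2 1.42.0, RLE factors, other filters, covariates, scalings and each library left out.

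The 74 members and the gene lists were chosen with earlier results of these data known. Named in each comparison were up to 6 called members with the largest and 6 with the smallest change, 16 fixed members, the extremes, the 3 with most and fewest counts, and the 3 genes of each list with the smallest p, of which the text gives a part. Rps21, Rps26, Rps27l and others outside the rule were named after their values were seen.

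Further rows under the member symbols numbered 32, and 1 of them repeated the member's counts. For 6 symbols (Rpl35a, Rpl9, Rps24, Rplp1, Rpl34 and Rpl7a) the second row held more than 50% of the member's mean count. There were 31 copies or pseudogenes by symbol outside the rule, 17 with a mean count of at least 100, so reads may be shared between near-identical copies. Levels of different genes were not compared, since no transcript lengths of the build were used. Sequences are from RefSeq, GRCr8. The result of 1 member by name is not reported here, and its row is left out of the map of levels.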

Additional observations from a re-analysis of the deposited data

Results flagged for a closer look

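Rps16 was the only member whose IUGR effect differed between ages by a test of the difference itself (-0.81 ± 0.20 on the log2 scale, adjusted p = 0.0207, edgeR's quasi-likelihood test). In TMM-scaled CPM, all 3 IUGR libraries at 10 weeks were below all 9 other libraries. Over 26 alternatives the difference ran from -0.96 to -0.45, with adjusted p from 0.00151 to 0.635, and it passed in 18. It was not called with the acinar covariate (-0.74), relative to the summed members (-0.70), without the acinar-rich controls at 10 weeks (-0.79), with library totals less the acinar list (-0.59) or without scaling factors (-0.45), nor when replicate 2 of IUGR at 2 weeks (-0.77) or replicate 2 (-0.75) or 3 (-0.72) of the controls at 10 weeks was left out.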

How the results depend on the processing

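Member calls (24 at 10 weeks between IUGR and control, 12 with age in controls, 36 with age in IUGR, 1 for the difference, 0 at 2 weeks) moved by over 1.5 times as follows, and the cause was not tested. Percentages in brackets are the share of all transcripts called in either direction, which was 27.9% at 10 weeks in the report's fit. Member calls at 10 weeks numbered 39 with DESeq2 (33.5%), 42 at an adjusted p under 0.1 (38.1%) and 13 with the replicate block (26.8%). They numbered 0 with the acinar covariate (9.22%), 2 with library sizes from the members (39.6%), 0 without scaling factors (40.3%) and 1 with totals less the acinar list (32.5%). The fit without the acinar-rich controls left 1 control at 10 weeks, so its calls are not listed. With age in controls (32.3% in the report's fit) member calls numbered 20 at an adjusted p under 0.1 (42.4%) and 3 with the replicate block (33.3%). They numbered 48 with the acinar (36.8%) and 0 with the proliferation covariate (1.14%), and 0 with only the libraries compared (17.5%). With sizes from the members they numbered 2 (27.1%), without scaling factors 29 (16.5%) and with totals less the acinar list 73 (53.2%). Between ages in IUGR (56.5% in the report's fit) they numbered 3 with the acinar (53.3%) and 0 with the proliferation covariate (5.05%). They numbered 7 with sizes from the members (56.8%), 4 without scaling factors (24.4%) and 67 with totals less the acinar list (47.2%). At 2 weeks (3.88% in the report's fit) DESeq2 called 5 (15.5%) and an adjusted p under 0.1 gave 4 (14.6%). For the difference (14.3% in the report's fit) the count was 0 with sizes from the members (4.72%). It was also 0 without scaling factors (0.125%) and with totals less the acinar list (8.36%).

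Leaving out 1 library gave 0 to 3 member calls at 2 weeks, 1 to 33 at 10 weeks and 0 to 1 for the difference. With age it gave 0 to 15 in controls and 19 to 46 in IUGR. The share of all transcripts called in either direction moved as well. It ran from 0% to 11.2% at 2 weeks (3.88% with all libraries), 14.1% to 33.3% at 10 weeks (27.9%) and 8.37% to 23.6% for the difference (14.3%). With age it ran from 21.6% to 32.5% in controls (32.3%) and 47.9% to 50.7% in IUGR (56.5%). At 10 weeks the count of members called was 11 without replicate 1 and 1 without replicate 3 of the controls. The count was 3 without replicate 1 or 3 of IUGR. With age in controls it was 0 without replicate 1 at either age and 1 without replicate 2 at 10 weeks. In IUGR it was 23 without replicate 3 at 2 weeks, and 19 or 20 without replicate 1 or 3 at 10 weeks.

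Between IUGR and control at 10 weeks, only 3 of the 74 members were below 0 with the acinar covariate. Of the named members called lower in the report's fit, 9 turned positive, at 0.33 for Rps28, 0.054 for Rps19, 0.49 for Rpl23, 0.28 for Rplp0, 0.14 for Rpsa and Rplp2, 0.24 for Rpl3, 0.38 for Rps14 and 0.26 for Rpl10a. Without scaling factors the same genes were at 0.15, 0.14, 0.25, 0.23, 0.24, 0.35, 0.38, 0.39 and 0.27; the cause was not tested. The members' share of counts moved to 2.97%, 2.46% and 1.64% in the first 3 groups once acinar counts were left out. Deviations of same-numbered libraries had mixed correlations, from -0.18 to 0.51 (replicates 1 and 2 of the controls between ages at 0.45 and 0.51, replicate 3 at -0.07), and no comparison had all 3 above 0.1, so the numbers were not taken as pairs. All members had at least 1310 counts per library, so the number of libraries limits precision.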

Other observations

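Other lists of marker genes also differed in the same comparisons. In IUGR at 10 weeks 8 of 10 endothelial markers, 5 of 6 red blood cell markers and 14 of 16 immediate-early genes were lower than in control. Of 12 ductal markers 2 were lower and of 11 immune markers 1, and 7 of 15 beta cell markers were higher. Of all transcripts, 15.5% were called lower and 12.4% higher. Chga, a granule protein, rose by 1.43 ± 0.25 (adjusted p = 0.00324, edgeR's quasi-likelihood test). With age in IUGR all 15 beta cell markers rose, all 13 mesenchymal markers fell and all 6 red blood cell markers fell. Of 12 ductal markers 3 fell and 2 rose, and of 11 immune markers 1 fell. Of all transcripts, 29.2% were called lower and 27.3% higher. Slc2a2, the glucose transporter GLUT2, rose by 3.05 ± 0.22 (adjusted p = 3.38e-06, edgeR). The same lists moved likewise with age in controls. There 14 of 15 beta cell markers were called higher, and 9 of 13 mesenchymal and all 6 red blood cell markers lower. Of all transcripts, 17.2% were called higher and 15.1% lower in controls. The part of these gene lists in the ribosomal protein levels was not tested.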
